A study of Mus musculus with 24 samples.

Results

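Cholesterol synthesis was described here in mouse liver organoids by 7 genes, namely Srebf2, Insig1, Hmgcs1, Idi1, Fdft1, Sqle and Lss. The genes were taken by their symbols from 3 tables of gene expression, and 7 of 7 were found among the 31053 genes listed in the hepatocyte table, the 25876 in the cholangiocyte table and the 20729 in the Smart-Seq table. The study grew organoids in Matrigel from the livers of BALB/c mice aged 6 to 8 weeks and measured RNA in 24 libraries. The hepatocyte table held 3 libraries each of Pri-Hep (EpCAM-negative primary hepatocytes, the starting material) and of the hepatocyte organoids, Hep-Orgs, at passages P1, P5 and P10, grown in a hepatocyte medium with added dexamethasone, a glucocorticoid, and DAPT, which blocks Notch signalling. The cholangiocyte table held 3 libraries each of Cho-Orgs, organoids grown in cholangiocyte organoid medium from bead-selected bile duct cells, at P0, P5 and P10. The Smart-Seq table held 3 libraries of Hep-Orgs picked by shape during the first passage, 1 labelled Round-like, 1 Intermediate and 1 Grape-like. The paper describes these shapes in the hepatocyte medium before dexamethasone and DAPT were added to it.

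Cells make cholesterol from acetyl-CoA through mevalonate, isoprenoid diphosphates, squalene and lanosterol. When sterols in the endoplasmic reticulum membrane are low, the protein SCAP carries the transcription factor SREBP-2 to the Golgi, where a pair of proteases release its active part, which turns on the genes of the route. When sterols are high, INSIG proteins hold the complex in the endoplasmic reticulum. The liver is a main site of this synthesis, and hepatocytes also turn cholesterol into bile acids.

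Srebf2, which encodes SREBP-2 (ENSMUSG00000022463), lies on the plus strand of chromosome 15 at 82147181 to 82205379 (GRCm38, GENCODE M21 gene bounds). Insig1, a sterol sensor that retains SCAP (ENSMUSG00000045294), lies on the plus strand of chromosome 5 at 28071363 to 28078662. Hmgcs1, the cytosolic HMG-CoA synthase, at an early step before mevalonate (ENSMUSG00000093930), lies on the plus strand of chromosome 13 at 119690379 to 119708260. Idi1, which interconverts the isoprenoid building blocks isopentenyl and dimethylallyl diphosphate (ENSMUSG00000058258), lies on the plus strand of the same chromosome at 8885501 to 8892451. Fdft1, squalene synthase and the first enzyme committed to sterols (ENSMUSG00000021273), lies on the minus strand of chromosome 14 at 63145150 to 63179578. Sqle, squalene epoxidase, a rate-limiting oxygenation step (ENSMUSG00000022351), lies on the plus strand of chromosome 15 at 59315077 to 59331192. Lss, which closes the epoxide into lanosterol, the first sterol (ENSMUSG00000033105), lies on the plus strand of chromosome 10 at 76531588 to 76557138. Exons of Fdft1 shared 774 of 4227 bases with Ctsb on the other strand, and shorter overlaps with non-coding genes were 557 of 4594 bases in Hmgcs1, 323 of 3505 in Idi1 and 381 of 10787 in Lss. The bulk reads are described as strand-specific, but whether strand was used in counting is not given in the sources used here, so it is not known if reads of these partners were kept apart in the shared bases.

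The promoters of 5 of the 7 genes had an entry in RefSeq (GRCm38.p6). Of these, 3 are shown because they stand for the patterns in the Cho-Orgs below, with Hmgcs1 and Insig1 called lower at P10 and Srebf2 not called. Each run ends before the annotated gene start and is on the plus strand, at chr13:119690101-119690350 for Hmgcs1, chr5:28071162-28071362 for Insig1 and chr15:82147019-82147180 for Srebf2. Capitals mark the CCAAT box on either strand (read as ATTGG on the printed one), the element bound by NF-Y, and the letters TCACNCCAC, a core of the sterol regulatory element.
Hmgcs1: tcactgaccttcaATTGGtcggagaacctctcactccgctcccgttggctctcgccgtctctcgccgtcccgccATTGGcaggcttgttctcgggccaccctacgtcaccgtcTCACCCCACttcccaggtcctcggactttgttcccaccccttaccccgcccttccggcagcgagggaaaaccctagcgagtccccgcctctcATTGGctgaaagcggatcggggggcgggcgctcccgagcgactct
Insig1: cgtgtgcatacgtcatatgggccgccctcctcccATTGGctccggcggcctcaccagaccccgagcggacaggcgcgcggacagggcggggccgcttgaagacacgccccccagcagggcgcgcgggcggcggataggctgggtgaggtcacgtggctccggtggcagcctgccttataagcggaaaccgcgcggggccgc
Srebf2: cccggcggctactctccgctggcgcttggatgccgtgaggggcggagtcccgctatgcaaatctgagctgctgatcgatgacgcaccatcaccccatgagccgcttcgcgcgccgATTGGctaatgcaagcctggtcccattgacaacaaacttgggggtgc
Motifs were searched on both strands over the 250 bases before each RefSeq start. TCACNCCAC was found in 1 of the 5 promoters, that of Hmgcs1, where it lay 137 bases before the start, and in 1.05% of 32851 promoters in all. CCAAT was found in 5 of 5 against 33.8% of all promoters, with 3 matches in Hmgcs1, 2 in Idi1 and 1 each in Insig1, Lss and Srebf2. GGGCGG, the core of the GC box bound by Sp1, was found in 5 of 5 against 32.7%. In 15 promoters of 12 other enzymes of the route, TCACNCCAC was found in 0, CCAAT in 11 and GGGCGG in 12. No pattern contains another, though neighbouring matches may share end bases, and a match describes the letters in this window and not a bound site.

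Some libraries stood against their labels. In Pri-Hep, the cholangiocyte keratin Krt19 (237 ± 6.66 FPKM, SD, n = 3) and Epcam (269 ± 5.40 FPKM) lay above Alb, the hepatocyte albumin gene (112 ± 7.99 FPKM), and these 3 libraries are therefore called the libraries labelled Pri-Hep. The 9 Hep-Orgs libraries of the same table stood against their label in the same way, with Krt19 at 239.5 ± 3.92 FPKM, Epcam at 273 ± 6.37 and Alb at 112 ± 6.56 (SD, n = 9), and the names below are those of the labels. In the Cho-Orgs, the summed FPKM of a hepatocyte marker list was 7212 to 8144 at P0, 203 to 250 at P5 and 77.8 to 83.3 at P10, against 5036 to 6402, 3346 to 3485 and 3175 to 3210 for a cholangiocyte list. Of the Smart-Seq Hep-Orgs, the Grape-like library had a macrophage sum of 7686 above its hepatocyte sum of 6014. The Round-like library had a cholangiocyte sum of 2796 above its hepatocyte sum of 1401. In the Intermediate library the hepatocyte sum (10353) lay above the cholangiocyte (3385) and macrophage (2258) sums. Replicate 2 of Cho-Orgs P0 was the lowest of its group in 7 of 7 members and 15 of 15 other synthesis enzymes, against 41.2% of 11593 genes, and its effect on comparisons with P0 is given beside them. The same library had the lowest proliferation sum of P0 (324 against 473 and 379 FPKM), the lowest hepatocyte sum (7212 against 8144 and 7658) and the highest cholangiocyte sum (6402 against 5036 and 5177), and the part of these in the low route was not tested. Fragments recovered from the FPKM values totalled 14068906 to 27160365 per hepatocyte library, 37423390 to 39899542 per Cho-Orgs library and 39914283 to 40326745 per Smart-Seq library, and each member held 393 to 4621, 1258 to 20143 and 2009 to 18201 fragments. FPKM (fragments scaled to gene length and to the depth of the library) is a level per length, and because the tables used different gene lengths (Fdft1 4227 against 10420 bases), FPKM levels were compared only within a table.

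The cholangiocyte table asks whether expression held over long culture. From P5 to P10, 6 of the 7 genes fell, Insig1 the most (P10 at 0.409 of the P5 mean FPKM), then Hmgcs1 (0.532), Lss (0.563), Idi1 (0.659), Fdft1 (0.702) and Sqle (0.742). Srebf2, the gene of the transcription factor itself, was at 0.949 of its P5 mean and did not pass the test. At P0 the levels ran from Hmgcs1, Sqle and Insig1 through Srebf2 and Lss to Fdft1 and Idi1, where Sqle and Insig1 overlapped, as did Fdft1 and Idi1. At P10 Sqle and Srebf2 led and overlapped, followed by Hmgcs1, Insig1, Fdft1, Lss and Idi1 with no overlap between neighbours.

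Among the regulators, Srebf2 was at 56.5, 49.9 and 56.2 FPKM in replicates 1, 2 and 3 of P0, at 59.6, 61.0 and 64.9 at P5 and at 60.2, 59.2 and 56.6 at P10. The P0 libraries lay below all others, if only just (56.5 against 56.6 FPKM), and P5 and P10 overlapped. Insig1 was at 71.1, 61.9 and 76.3 FPKM at P0, at 59.4, 61.8 and 58.9 at P5 and at 24.6, 23.5 and 25.5 at P10. The 3 P10 libraries lay far below the other 6.

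Of the early enzymes, Hmgcs1 was at 119.9, 79.3 and 109.9 FPKM at P0, at 95.3, 96.5 and 94.7 at P5 and at 51.2, 49.8 and 51.3 at P10. Idi1 was at 21.7, 13.1 and 23.1 FPKM at P0, at 18.0, 19.1 and 17.3 at P5 and at 11.5, 12.2 and 12.2 at P10. In both genes replicate 2 of P0 lay below all of P5 and its replicates 1 and 3 above, while P10 lay below every other library.

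In the squalene segment, Fdft1 was at 23.3, 19.8 and 22.6 FPKM at P0, at 25.1, 23.8 and 24.6 at P5 and at 16.9, 17.4 and 17.3 at P10. Sqle was at 78.3, 62.2 and 73.4 FPKM at P0, at 78.8, 79.0 and 80.9 at P5 and at 58.9, 58.5 and 59.7 at P10. Both genes were highest at P5, with no overlap between any of the passages. Lss was at 36.2, 28.2 and 35.6 FPKM at P0, at 27.7, 26.8 and 30.4 at P5 and at 15.9, 15.5 and 16.4 at P10, so that P0 and P5 overlapped and P10 lay apart.

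**Figure D1:**
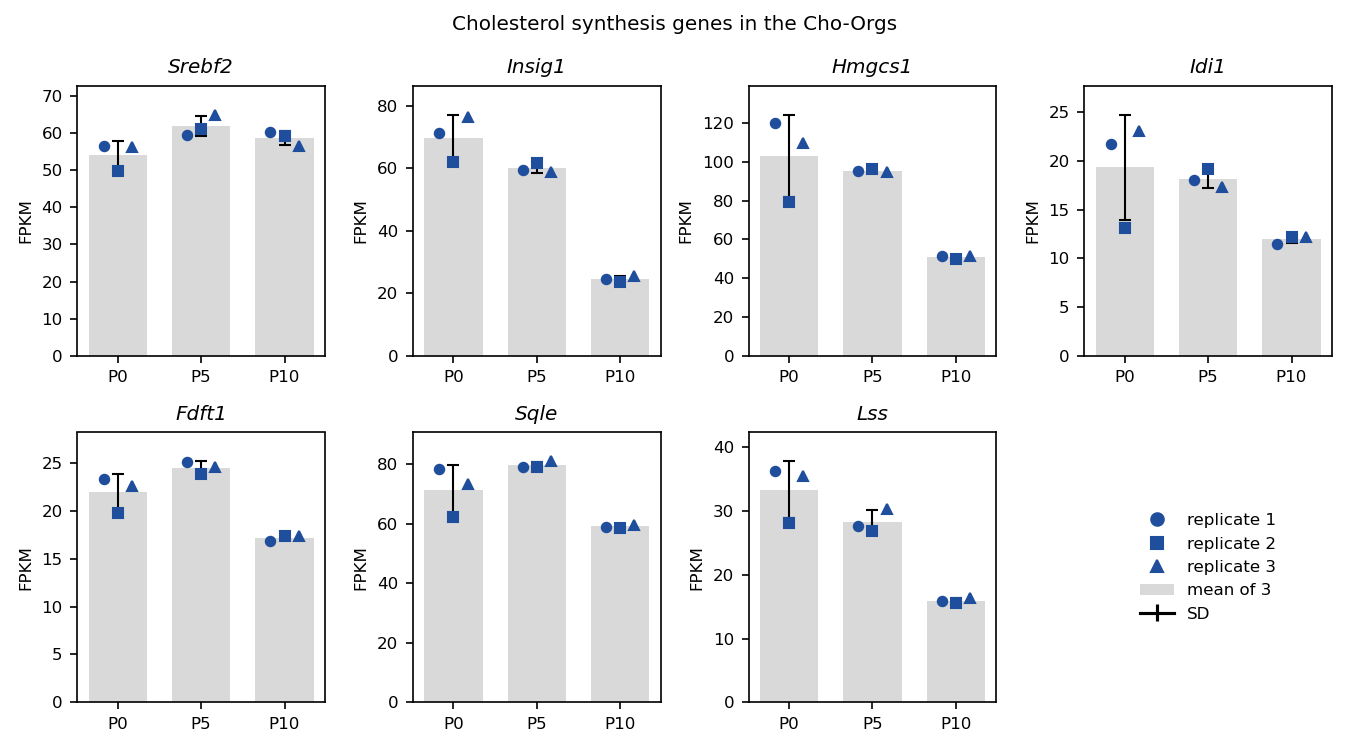
FPKM of the 7 genes in Cho-Orgs by passage (P0, P5, P10), with bars for the mean of 3 libraries, error bars for the SD and a point for each replicate. Insig1 goes from 69.8 ± 7.26 FPKM at P0 to 24.5 ± 1.02 FPKM at P10, whereas Srebf2 stays between 49.9 and 64.9 FPKM in all 9 libraries.

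Between P5 and P10, groups did not overlap in 6 of 7 members, all lower, against 74.2% of the 11593 genes tested and 36.8% lower, and 6 of 7 passed the test as lower (limma on log2(FPKM + 1), Benjamini-Hochberg adjusted p under 0.05) against 30.5% of genes called lower and 61.5% called either way. On that scale Insig1 changed by -1.26 (SE 0.072, adjusted p = 7.02e-07) and Hmgcs1 by -0.90 (SE 0.122, adjusted p = 0.000162). Lss changed by -0.79 (adjusted p = 5.62e-05), Idi1 by -0.56 (adjusted p = 0.0141), Fdft1 by -0.49 (adjusted p = 0.000111) and Sqle by -0.42 (adjusted p = 0.000756), whereas Srebf2 differed by -0.07 with a 95% interval of -0.209 to 0.061 (adjusted p = 0.313). The median difference was -0.56 over the members and 0.0055 over all genes tested. Fewer cells of a type and less RNA per cell cannot be told apart in these bulk libraries. Lower from P5 to P10 as well was the summed FPKM of a proliferation list, 8 of 8 genes lower (181 to 186 at P5, 80.1 to 86.9 at P10, and Mki67 from 15.8 to 1.27). So were the sums of the hepatocyte list (5 of 9 tested lower) and of a stellate and mesenchymal list (60.7 to 75.4 at P0, 7.54 to 8.37 at P5 and 0.174 to 0.239 at P10). Of the stellate list only Reln was tested, and the other 4 of its 5 genes were under 1 FPKM at every passage. From P0 to P5 the proliferation list was also 8 of 8 lower and the hepatocyte list 8 of 9 tested, beside 22.6% of all genes. The median difference of the members at that step was -0.05. The part of these lists in the result was not tested. A macrophage list was also lower in sum (72.1 to 77.3 at P5, 10.1 to 10.5 at P10), but this was nearly all Cd68, the other 5 of its 6 genes were under 1 FPKM at both passages, and Clec4f, Lyz2 and Vsig4 were at 0.

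Against P0, P10 was again lower in 6 of 7 members and higher in Srebf2, with no overlap in any of the 7 (75.1% of all genes did not overlap, 32.6% as lower). The 6 passed the test as lower against 31.3% of all genes (72.3% called either way), with Insig1 at -1.47 (SE 0.072, adjusted p = 8.5e-08), Lss at -1.01 (adjusted p = 4.88e-06) and Hmgcs1 at -0.99 (adjusted p = 5.01e-05). Idi1 changed by -0.61 (adjusted p = 0.00753), Fdft1 by -0.33 (adjusted p = 0.000889) and Sqle by -0.26 (adjusted p = 0.0095), while Srebf2 differed by 0.11 (adjusted p = 0.116). Without P0 replicate 2 the same 6 genes passed, and Hmgcs1 was at -1.16 and Idi1 at -0.85. Ctsb, which overlaps Fdft1, was at 163 to 194 FPKM at P0, 177 to 183 at P5 and 96.1 to 98.7 at P10, and its part in the Fdft1 values was not tested.

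Between P0 and P5 the changes were small and mixed. Srebf2 rose by 0.19 on the log2(FPKM + 1) scale (SE 0.060, adjusted p = 0.0234) and Insig1 changed by -0.21 (SE 0.072, adjusted p = 0.0321), so 2 of 7 members were called against 56.6% of all genes (34.0% higher and 22.6% lower). Sqle (0.16, adjusted p = 0.0846), Fdft1 (0.16, adjusted p = 0.0552), Lss (-0.22, adjusted p = 0.0609), Hmgcs1 (-0.09, adjusted p = 0.566) and Idi1 (-0.05, adjusted p = 0.82) did not pass. The groups did not overlap in Srebf2, Sqle and Fdft1, higher at P5, and in Insig1, lower at P5, against 61.5% of all genes (24.8% lower). Lss passed when the replicate number was a block (adjusted p = 0.0312). Without P0 replicate 2 the picture changed to 4 genes called lower, with Hmgcs1 at -0.26, Idi1 at -0.29, Lss at -0.33 and Insig1 at -0.29, and Srebf2 was then not called (0.13, adjusted p = 0.0548). The call of Insig1 was also lost without P0 replicate 1 or 3 or without any 1 of the P5 replicates (limma adjusted p = 0.0503 to 0.108), and that of Srebf2 without P5 replicate 3 (adjusted p = 0.0917). The median of all genes shifted by 0.06 in this comparison, by 0.11 with TPM and by -0.006 with median-ratio factors, and the 2 calls were Srebf2 and Insig1 as deposited, but Srebf2, Sqle and Fdft1, all higher, with TPM and Lss and Insig1, both lower, with median-ratio factors.

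The change of step, the P5 to P10 difference minus the P0 to P5 difference, was below 0 in 7 of 7 genes and passed as lower in 5 (27.8% of all genes, and 48.7% either way). It was not planned and was added after seeing the data, so its p-values describe a pattern already seen. Insig1 had -1.05 (adjusted p = 0.00013), Hmgcs1 -0.81 (adjusted p = 0.0107), Fdft1 -0.64 (adjusted p = 0.000995), Sqle -0.59 (adjusted p = 0.00419) and Lss -0.57 (adjusted p = 0.0141). Idi1 (-0.51, adjusted p = 0.164) and Srebf2 (-0.26, adjusted p = 0.0633) did not pass, though Idi1 passed without P0 replicate 2 (-0.27, adjusted p = 0.0358). Without that library Hmgcs1 had -0.64, Fdft1 -0.57, Sqle -0.49, Lss -0.45 and Insig1 -0.97, and all 5 passed. Lss did not pass without P5 replicate 3 (adjusted p = 0.0704). Srebf2 passed without P0 replicate 1 (adjusted p = 0.0330) and with TPM (adjusted p = 0.0322).

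**Figure D2:**
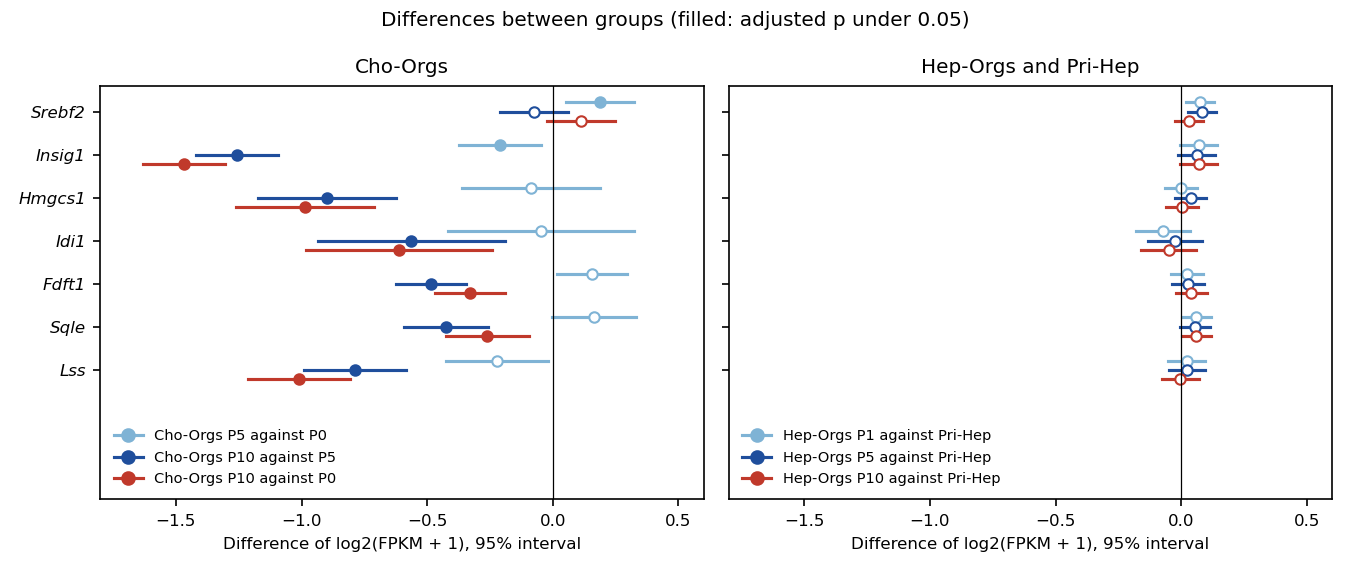
Differences of the 7 genes on the log2(FPKM + 1) scale with 95% intervals, in the Cho-Orgs (left) and for Hep-Orgs at P1, P5 and P10 against the libraries labelled Pri-Hep (right), where filled points have an adjusted p under 0.05. In the left panel 6 genes lie below 0 with filled points at P10 against either earlier passage. The points of Srebf2 at P10 are open, at -0.07 against P5 and 0.11 against P0. In the right panel no point is filled.

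Over the 9 Cho-Orgs libraries the 6 genes other than Srebf2 varied together, with Pearson's r of log2 values between 0.818 (Sqle and Lss) and 0.983 (Lss and Insig1) and a median of 0.888 over 15 pairs. The 6 pairs with Srebf2 had r between -0.157 and 0.395. Without P0 replicate 2 the 15 pairs lay between 0.866 and 0.994 and the 6 with Srebf2 between -0.144 and 0.288. These values describe 3 passages of 3 libraries and share the change at P10. Among the 5 genes whose pattern was most like the mean of the members, out of 11586, were P2ry6 (r = 0.997), Nsdhl (0.994), Mrps21 (0.989) and Galnt12 (0.989), where Nsdhl is itself an enzyme of the route after lanosterol. Pmvk stood at rank 11, Fdps at 21 and Msmo1 at 23.

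The other enzymes of the route, 15 in all and 15 tested, were lower at P10 than at P5 in 14 cases by the test. Over all genes tested, 30.5% were called lower in this comparison. The median difference was -0.57 over these enzymes and 0.0055 over all genes tested. Fdps, which makes farnesyl diphosphate, changed by -0.55 (adjusted p = 0.00012), and Cyp51, the lanosterol demethylase, by -0.72 (adjusted p = 0.00016) after a rise of 0.41 from P0 to P5 (adjusted p = 0.00584), which was 0.27 without P0 replicate 2 (adjusted p = 0.000473). Acat2, which feeds acetoacetyl-CoA to Hmgcs1, changed by -0.88 (adjusted p = 0.000139). At the end of the route, Dhcr7 fell at each step, by 0.48 (adjusted p = 0.00171) and then by 0.81 (adjusted p = 5.29e-05). Against P0, 13 of the 15 were called lower at P10 and 1 higher, beside 31.3% and 41.0% of all genes, and 14 and 1 without P0 replicate 2.

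**Figure D3:**
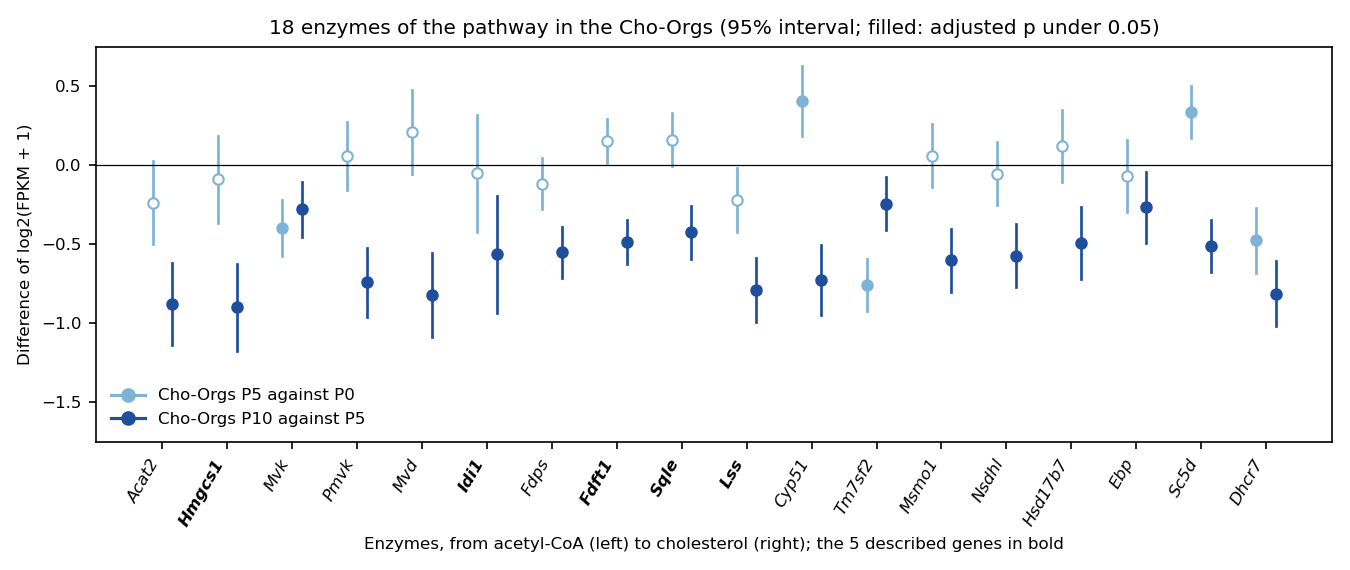
Differences on the log2(FPKM + 1) scale for 18 enzymes from acetyl-CoA to cholesterol in the order of the route, P5 against P0 and P10 against P5 in the Cho-Orgs, with 95% intervals and the 5 member enzymes in bold. From P5 to P10 the 18 enzymes shown lie below 0.

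Of 5 genes of the machinery that handles SREBP, all tested, 3 were called higher and 0 lower from P5 to P10, with a median of 0.27, beside 31.0% of all genes called higher and 30.5% lower. Scap, the escort of SREBP-2, rose by 0.31 (adjusted p = 0.0148), and Mbtps2, the second of the cleaving proteases, rose by 0.27 (adjusted p = 0.00125) after 0.19 from P0 to P5 (adjusted p = 0.00981). Insig2, the partner of Insig1, differed by -0.03 from P5 to P10 (adjusted p = 0.754) and by 0.11 from P0 to P10 (adjusted p = 0.2). Srebf1, whose products act more on fatty acid synthesis, changed by -0.64 from P0 to P5 (adjusted p = 3.04e-06) and differed by 0.11 from P5 to P10 (adjusted p = 0.0692).

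Uptake and storage genes gave no common direction. Of 9 genes of cholesterol uptake and traffic, 3 were called higher and 5 lower from P5 to P10. Of all genes, 31.0% were called higher and 30.5% lower in that comparison. Stard4, a carrier of sterol between membranes, changed by -1.52 (adjusted p = 1.13e-06). Mylip, a ubiquitin ligase that limits cholesterol uptake, rose by 0.80 (adjusted p = 0.000164). Against P0, Npc2, which moves cholesterol out of lysosomes, was lower at P10 at -0.95 (adjusted p = 2.64e-07). A list of efflux, esterification and LXR receptor genes also held Acat1, a mitochondrial thiolase that has none of these roles. Of the 7 genes of that list that were tested, Acat1 among them, 2 were called higher and 2 lower from P5 to P10. Both counts were near the shares of all genes, 31.0% and 30.5%. Abca1, the cholesterol exporter, was at 7.02, 5.97 and 7.60 FPKM at P0 but at 0.436, 0.485 and 0.388 at P5 and at 0.382, 0.537 and 0.443 at P10, a change of -2.45 between P0 and P5 (adjusted p = 3.59e-08). The cholesterol esterifying enzymes moved apart, as Soat1 rose by 0.84 from P0 to P5 (adjusted p = 8.96e-05) and then changed by -1.92 (adjusted p = 4.09e-07), while Soat2 rose by 0.42 (adjusted p = 0.0133) and by 1.44 (adjusted p = 7.61e-06). Nr1h2, which encodes LXR beta, was higher at P10 than at P0 by 0.44 (adjusted p = 3.58e-05), and without P0 replicate 2 the calls against P0 named here and for the SREBP genes did not change. Abcg1 had a mean of 0.92, 0.47 and 0.72 FPKM and was below the filter.

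The hepatocyte table asks whether Hep-Orgs keep the expression of hepatocytes over passages. The 7 genes were nearly flat over its 12 libraries, with a ratio of the highest to the lowest library between 1.07 (Fdft1) and 1.18 (Idi1). Srebf2 was at 21.8, 22.0 and 22.7 FPKM in the libraries labelled Pri-Hep, at 23.6, 23.0 and 23.5 at P1, at 23.8, 23.1 and 23.5 at P5 and at 22.2, 22.7 and 23.0 at P10. All P1 and P5 libraries lay above those labelled Pri-Hep, and P10 lay between, overlapping Pri-Hep and P1. The share of all genes whose groups do not overlap was not counted in this table. Gaps between groups in this gene and those below are therefore described only, and none passed the test given further on. Insig1 was at 15.8, 15.0 and 15.0 FPKM, then at 15.4, 16.5 and 16.3, at 16.3, 15.6 and 16.0 and at 15.6, 16.2 and 16.3 in the same order of groups, with overlap throughout.

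Hmgcs1 was at 21.5, 22.7 and 23.2 FPKM, then at 22.4, 22.2 and 22.7, at 22.9, 23.5 and 22.8 and at 22.8, 22.3 and 22.4, from the libraries labelled Pri-Hep through P1 and P5 to P10. Idi1 was at 9.45, 8.49 and 8.96 FPKM, then at 8.86, 8.47 and 8.11, at 9.02, 8.68 and 8.69 and at 7.98, 8.77 and 9.14. Idi1 overlapped between all groups, and in Hmgcs1 only P5 and P1 did not overlap, with P5 higher.

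Fdft1 was at 21.2, 21.2 and 21.7 FPKM, then at 21.6, 21.1 and 22.4, at 21.9, 21.5 and 22.0 and at 22.2, 21.3 and 22.6. Sqle was at 21.7, 21.4 and 22.3 FPKM, then at 22.8, 23.4 and 22.1, at 22.3, 23.0 and 22.8 and at 23.0, 22.7 and 22.6. Lss was at 8.98, 9.03 and 8.72 FPKM, then at 9.39, 9.11 and 8.68, at 8.99, 9.15 and 9.07 and at 8.98, 8.63 and 9.05. In Fdft1 and Lss every pair of groups overlapped, and in Sqle the P10 libraries lay above those labelled Pri-Hep while the other pairs overlapped.

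With the 9 Hep-Orgs libraries set against the 3 labelled Pri-Hep, 0 of 7 members passed the test, beside 0% of the 10986 genes tested. At an unadjusted p under 0.05 there were 3 members, Srebf2, Insig1 and Sqle, all higher in Hep-Orgs, beside 8.79% of all genes, and limma-voom on recovered fragments also gave 0 after adjustment. Srebf2 differed by 0.06 (95% interval 0.017 to 0.107, adjusted p = 0.447), Insig1 by 0.07 (0.007 to 0.127, adjusted p = 0.522) and Sqle by 0.06 (0.010 to 0.106, adjusted p = 0.493). Idi1 differed by -0.05 (-0.137 to 0.040, adjusted p = 0.781), and Fdft1, Hmgcs1 and Lss by 0.03, 0.01 and 0.01. The intervals of the 7 genes together ran from -0.137 to 0.127 on the log2(FPKM + 1) scale, so a change like that of Insig1 in the Cho-Orgs lay outside all of them. Over the 12 libraries the coefficient of variation was 2.29% to 4.77% by gene, beside 1.82% to 4.23% expected from counting the fragments alone.

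By passage, 0 of 7 members passed in any of the 6 comparisons, beside 0.00910% of all genes for P1 against Pri-Hep, 0.00910% for P5, 0% for P10, 0% for P5 against P1, 0.0273% for P10 against P5 and 0% for P10 against P1. Unadjusted p under 0.05 was reached by 2, 1, 1, 0, 0 and 0 members in that order, beside 8.29%, 10.8%, 6.64%, 3.97%, 11.5% and 8.98% of all genes. Pairwise r over the 12 libraries lay between -0.369 and 0.352 for the 15 pairs without Srebf2 (median -0.011). Of the 15 other enzymes 14 were tested against Pri-Hep and 0 passed, with 1 at an unadjusted p under 0.05. The genes most like the mean of the members here, out of 10979, were Klrg2 (r = 0.880), E2f1 (0.862), Ppp4r1 (0.858), Rxra (0.857) and Car9 (0.851), and no other synthesis enzyme was among these 5.

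**Figure D4:**
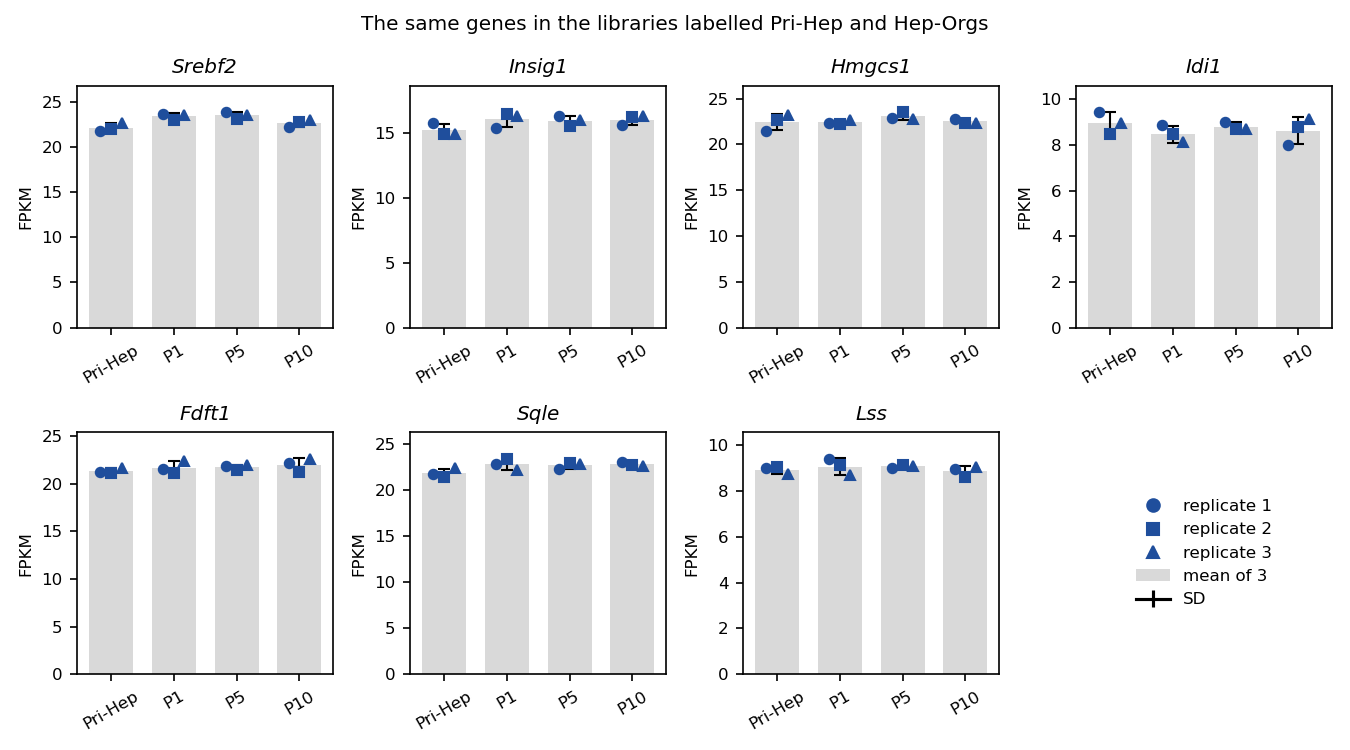
FPKM of the 7 genes in the libraries labelled Pri-Hep and in Hep-Orgs at P1, P5 and P10, with bars for the mean of 3 libraries, error bars for the SD and a point for each replicate. The bars of each gene are nearly level, as for Hmgcs1, whose 12 libraries lie between 21.5 and 23.5 FPKM.

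The Smart-Seq table sets Hep-Orgs of 3 shapes side by side. With 1 library each there was no test, and the intervals given cover counting error only (95%, exact binomial, fragments of amplified cDNA without stated molecular identifiers). The 6 genes other than Insig1 were lower in the Grape-like than in the Round-like library, and Insig1 was higher. Srebf2 was at 35.8 FPKM in the Grape-like, 42.7 in the Intermediate and 52.2 in the Round-like library, and the Grape-like to Round-like ratio was 0.69 (0.67 to 0.71). Insig1 ran in the opposite order at 77.9, 67.5 and 44.9 FPKM, a ratio of 1.74 (1.67 to 1.80). In these 2 regulators the Intermediate library lay between the others.

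Hmgcs1 was at 71.7 FPKM in the Grape-like library, 71.9 in the Intermediate and 107 in the Round-like, a Grape-like to Round-like ratio of 0.67 (0.65 to 0.68). Idi1 was at 17.5, 19.9 and 35.5 FPKM, the lowest ratio of the 7 at 0.49 (0.47 to 0.52). For these early enzymes the Intermediate library was near the Grape-like one, at 0.67 and 0.56 of the Round-like level. Fdft1 was at 8.33, 15.1 and 16.5 FPKM, with a ratio of 0.50 (0.48 to 0.52), and Ctsb on its other strand was at 2184, 699 and 458 FPKM. Sqle was at 57.5, 66.4 and 91.8 FPKM, with a ratio of 0.63 (0.61 to 0.65). Lss was at 17.5, 23.8 and 22.9 FPKM, with a ratio of 0.77 (0.74 to 0.80). In Fdft1 and Lss the Intermediate library was near the Round-like one, at 0.91 and 1.04 of its level, and both of these small differences changed direction under another scaling.

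**Figure D5:**
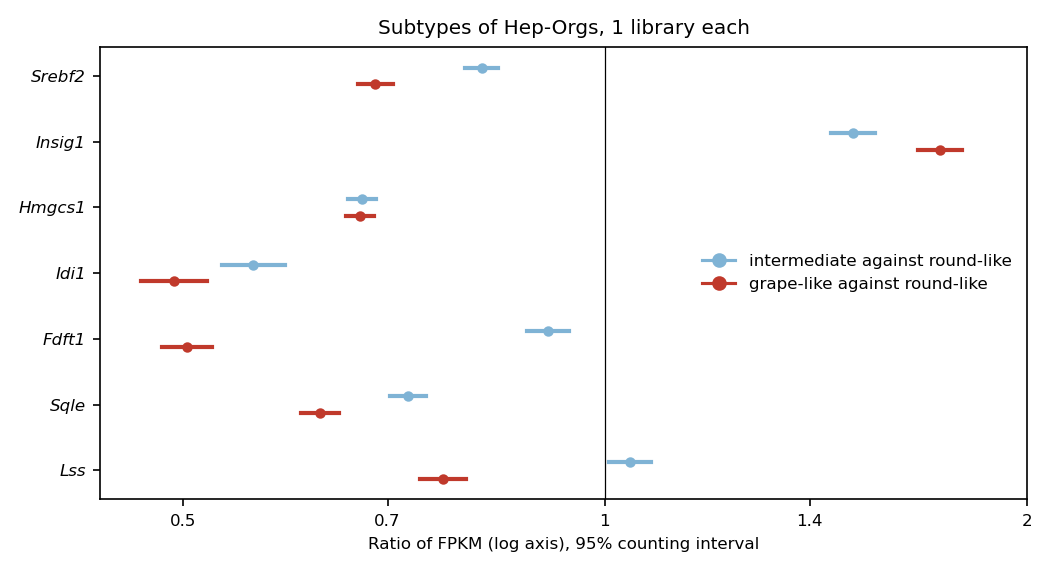
Ratio of FPKM (log axis) of the 7 genes in the Intermediate and Grape-like libraries to the Round-like library, with 95% counting intervals. Insig1 lies above 1 in both, at 1.74 in the Grape-like library, while the other 6 lie below 1 in the Grape-like library, between 0.49 and 0.77.

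On the log2(FPKM + 1) scale 0 of 7 members differed by more than 1 for Grape-like against Round-like, beside 21.8% of 12595 genes, and 0 did so for Intermediate against Round-like (6.39%) and Grape-like against Intermediate (16.9%). The median difference of the members was -0.57, -0.28 and -0.21 in that order, against -0.13, -0.12 and 0.03 over all genes. Of the 15 other enzymes 14 had a Grape-like to Round-like interval below 1 and 1 above it, Hsd17b7 (1.47), which acts on sterols after lanosterol. The share of all genes with such intervals was not counted, and small differences also excluded 1, as for Pggt1b at 0.94 (0.89 to 0.99). By more than 1 on the log2(FPKM + 1) scale, 1 of the 15 was lower and 0 higher, beside 21.8% of all genes either way. In the efflux, esterification and LXR list 8 of 10 genes had intervals above 1 and 0 below. Acat1, which has none of these roles, was counted in the 10 and was at 1.02 (0.97 to 1.07). By more than 1 on that log2 scale, 7 of the 10 were higher and 0 lower. Among the 7 were Abca1 (36.2 FPKM in the Grape-like library, 19.4 in the Intermediate and 6.35 in the Round-like) and Abcg1 (35.8, 11.8 and 7.30 FPKM in that order), both exporters. The summed FPKM of the hepatocyte list was 6014, 10353 and 1401 and that of the macrophage list 7686, 2258 and 1172 in the same order, the proliferation list gave 403, 321 and 572, and the cholangiocyte list 850, 3385 and 2796 (Krt19 at 9.86, 208 and 272 FPKM). Their part in the differences was not tested.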

How the data were processed

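Poly(A) RNA of the passaged organoids and amplified full-length cDNA (Smart-Seq) of the picked organoids were sequenced. Per the submitters' processing notes, the authors used the mm10 build, featureCounts 2.0.3 and edgeR 3.40.2, and deposited FPKM per gene for each library, in 3 tables. The aligner settings and the strand setting are not given in the sources used here. The FPKM values gave back whole fragments (tolerance 0.01) for nearly all genes, which supplied the depths above. The 7 genes, the gene lists and the tests were chosen with earlier results of these data known. Within a table, genes that reached an FPKM of 1 in 3 or more libraries were fitted together on log2(FPKM + 1) with limma 3.58.1 (R 4.3.3, eBayes with trend, two-sided, Benjamini-Hochberg adjusted p under 0.05, Python 3.11.15 for the rest). Some genes of these lists are not reported here. The code was tested on simulated data. Tables were not fitted together. Beside the 7 genes, the text names a fixed list of pathway genes and, from each pathway list, up to 2 genes a direction with the largest called difference between P10 and P0 of the Cho-Orgs. Columns of per-sample values left unmapped numbered 0. Replicate numbers were checked for pairing, since the sources name both mice and separate cultures for them. Deviations from group means correlated at a median of -0.0063 over 9 same-numbered pairs of Cho-Orgs libraries (-0.0030 over 18 others) and -0.0016 over 18 pairs in the hepatocyte table (-0.0018 over 36 others), and the block was kept as an alternative. No pair of libraries of the same bulk group agreed within sampling noise, but the excess was uneven. The chi-square per gene of a pair was 1.93 to 3.14 in the hepatocyte table. In the Cho-Orgs it was 39.8 to 83.6 at P0 and 3.93 to 9.81 at P5 and P10, while the fit took 1 shared spread for all groups of a table. If replicates are not separate cultures or animals, p-values measure technical spread only. Other settings were the pseudocount 0.1, other filters, TPM, median-ratio factors, no trend, only the groups compared, limma-voom on recovered fragments (for the Cho-Orgs added after seeing the data) and each replicate left out. The change of step in the Cho-Orgs was also added after seeing the data.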

Additional observations from a re-analysis of the deposited data

How the results depend on the processing

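The 6 members lower at P10 numbered 6 against P5 and 6 against P0 under 15 alternatives each, the change of step gave 4 to 6 under 17, and the hepatocyte comparisons gave 0 under all of theirs. Between P0 and P5 of the Cho-Orgs the count of 2 was not stable. It was 1 without the filter on low FPKM, 4 with limma-voom on recovered fragments, 0 with only the groups compared and 0 to 4 with a replicate left out, where the 4 came without P0 replicate 2 and were all lower. With the replicate block it was 3, since Lss was added, and the block changed no other call of a member. Hmgcs1 in this comparison turned to 0.032 (from -0.26 to 0.032 with a replicate left out), and Idi1 to 0.052 and 0.094 (from -0.29 to 0.094). For all Hep-Orgs against the libraries labelled Pri-Hep, Hmgcs1 turned to -0.017 (from -0.017 to 0.037) and Lss to -0.000297 (from -0.000297 to 0.023), both near 0 throughout. Between the picked organoids, 1 member, Idi1, passed a difference of 1 for Grape-like against Round-like with a pseudocount of 0.1. With TPM, Lss in Intermediate against Round-like turned to -0.0027 and Hmgcs1 in Grape-like against Intermediate to 0.082, and with median-ratio factors Fdft1 in Intermediate against Round-like turned to 0.051. Depth set no limit on the members in the Cho-Orgs (at least 1258 fragments each), and in the hepatocyte table the spread was close to counting error. The cause of these shifts was not tested.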

Other observations

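Branches beside sterol synthesis were also measured in the Cho-Orgs, and no difference from the members was tested. Of 8 genes of the non-sterol isoprenoid branch, which uses the same farnesyl diphosphate for prenyl groups, ubiquinone and dolichol, 7 were tested. From P5 to P10, 1 was called higher and 2 lower, beside 31.0% and 30.5% of all genes, and at P10 against P0, 4 were called higher and 1 lower, beside 41.0% and 31.3% (3 and 1 without P0 replicate 2). Against P0, Ggps1, geranylgeranyl diphosphate synthase, was higher by 0.46 (limma, adjusted p = 9.63e-05) and Coq2, which builds ubiquinone, by 0.34 (adjusted p = 0.00048), while Nus1, a dolichol synthesis subunit, was at -0.18 (adjusted p = 0.0128). Of 10 genes of bile acid synthesis only 4 passed the filter, with 1 called higher and 2 lower from P5 to P10. At P10 against P0, 0 were called higher and 2 lower, with or without P0 replicate 2, Amacr at -0.69 (adjusted p = 1.11e-05) and Hsd3b7 at -0.15 (adjusted p = 0.0282). Cyp27a1, which starts the acidic route of bile acid synthesis, differed by -0.19 (adjusted p = 0.223).

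Replicate 2 of Cho-Orgs P0 was low for the whole route. Its level was at a median of 0.820 of the mean of replicates 1 and 3 over the 7 genes and at 0.802 over the 15 other enzymes, against 0.975 over 11593 genes. The marker sums in which this library also stood apart are given in the report.

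Counts per fragment total, not divided by length, are set side by side for 2 genes. Fdps, the enzyme before Fdft1, was in the hepatocyte table at 2.16 to 3.42 fragments per 1000000 fragments, where its listed length was 4208 bases, and was at 146 to 261 on the same scale in the Cho-Orgs, where the length behind its FPKM was 1461 bases. Insig1 was at 46.3 to 51.0 and 62.2 to 202 on that scale in the same tables. The tables differ in gene lengths and were not fitted together, so no difference between them was tested.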
